A study of Mus musculus with 18 samples.

Results

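Chemokines of the CC and CXC families and their receptors were examined in RPE/choroid of mouse eyes after an intravitreal steroid. The genes were chosen by symbol, as every gene named Ccl, Ccr, Cxcl or Cxcr with a number, measured by probe sets annotated to that symbol alone. This gave 45 of the 18194 genes on the array. They comprised 18 CC ligands, 13 CXC ligands, 9 CC receptors and 5 CXC receptors, read by 69 probe sets, with 1 probe set for 29 of the genes and several for the other 16.

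Chemokines are small secreted proteins that draw leukocytes along a gradient, and each acts on receptors of the G protein-coupled class. CC ligands act mainly on monocytes, macrophages, T cells and eosinophils. Many CXC ligands act on neutrophils or, where interferon induces them, on T and NK cells. In the eye they are made by the RPE, resident macrophages, choroidal endothelium and stromal cells, and many of their genes are induced by NF-kB, which glucocorticoids antagonise.

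Total RNA of the RPE/choroid was hybridized to 18 Affymetrix mouse expression arrays, 3 for each of 6 groups, from C57BL6/J males. Each eye had received 1 µL of vehicle, a balanced salt solution (BSS), or of a steroid in it, either dexamethasone (Dex, 10 µg) or triamcinolone acetonide (TAA, 25 µg), and was collected on day 7 or on day 30. Both drugs are synthetic glucocorticoids, given at different doses, so that drug and dose cannot be told apart. No group analysed here went without an injection, and the day 30 animals were also older at collection. The labels give an age of 2 months and the methods 6 to 8 weeks. Per the methods, the 3 RNA samples of best quality were taken from 4 animals a group, and the labels call the arrays biological replicates. The methods also state that the sclera was taken out of the lysate and that much of the choroid probably left with it. The deposited values were log2 expression relative to each probe set's median over the 18 arrays, so that a value of 0 is a gene's middle level and levels of different genes cannot be compared. For the same reason the labelled tissue could not be checked by the level of its markers. The mean of 11 RPE and melanocyte genes varied from -0.24 to 0.20 between arrays. The mean of 9 rod photoreceptor genes varied from -1.91 to 3.99 in arrays of the same groups, and it was highest in BSS day 30 replicate 1 (3.99) and BSS day 30 replicate 3 (3.89), against -0.61 in BSS day 30 replicate 2. How far retinal RNA entered the values below was not tested beyond the fit with rod genes as a covariate.

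**Figure D1:**
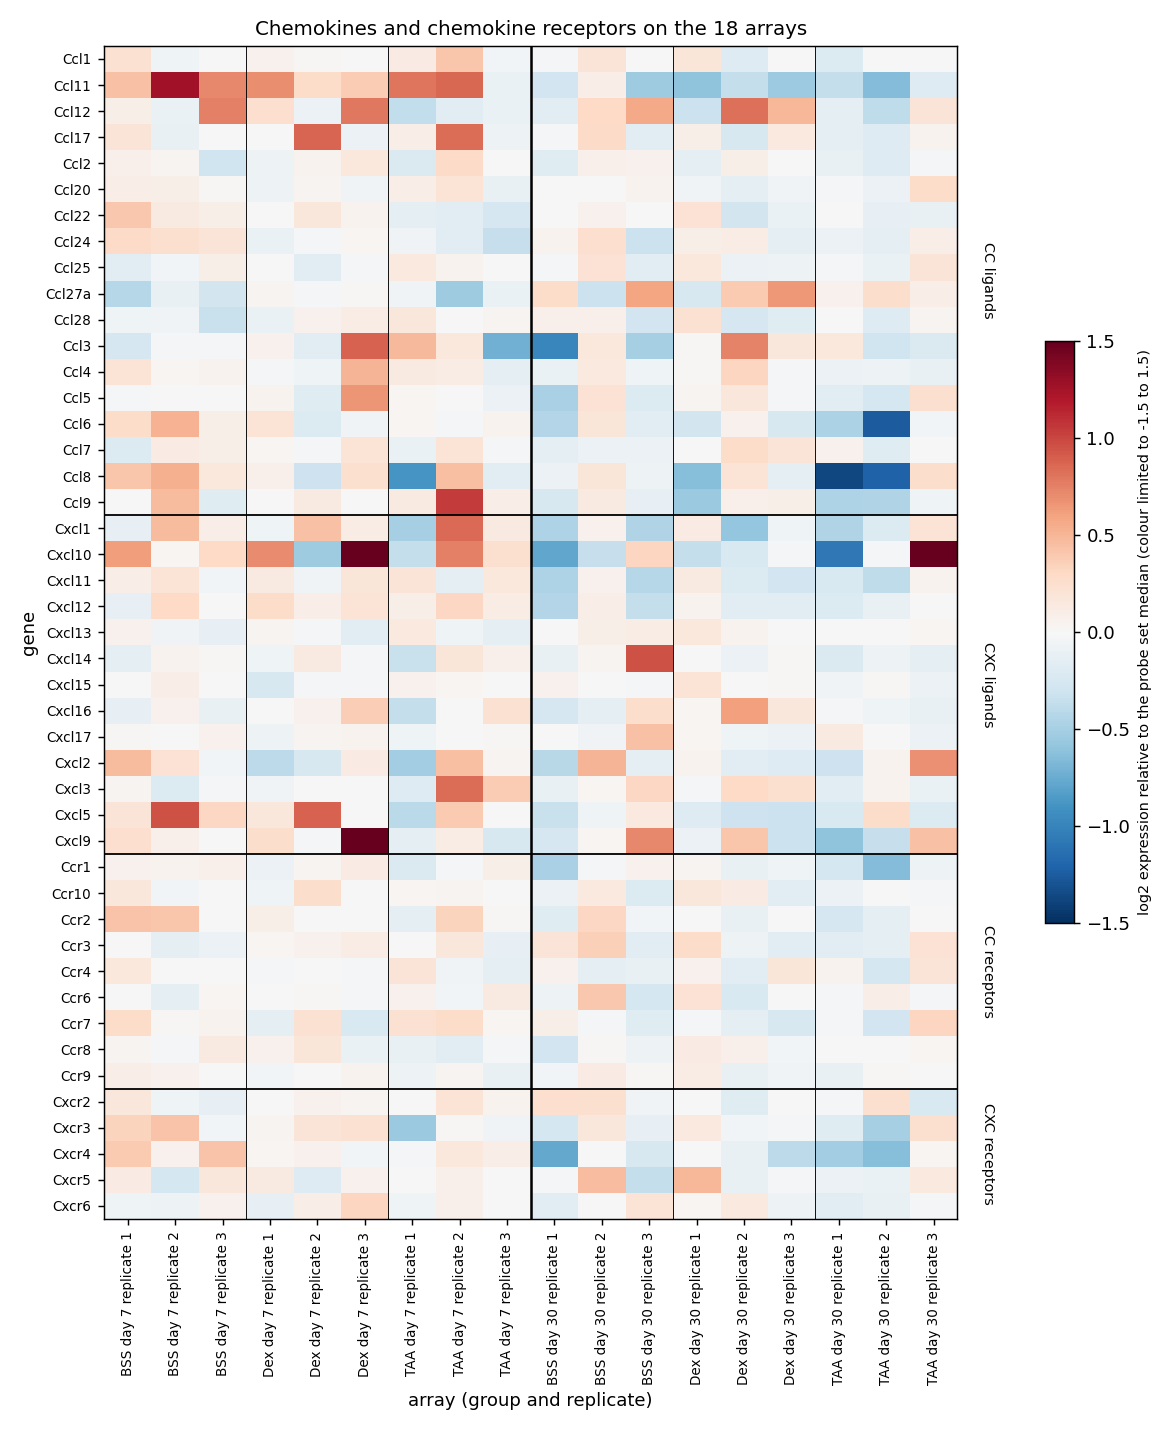
Log2 expression of the 45 genes (rows, grouped as CC ligands, CXC ligands, CC receptors and CXC receptors) on the 18 arrays (columns, day 7 left and day 30 right of the thick line), relative to each probe set's median, with colours limited to -1.5 to 1.5. Ccl11 is above its median on 8 of the 9 day 7 arrays and below it on 8 of the 9 day 30 arrays, and Cxcl9 and Cxcl10 are highest in Dex day 7 replicate 3.

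The genes varied more between arrays than most. Their median SD over the 18 arrays was 0.21 on the log2 scale, against 0.14 for all genes. Cxcl10 had the widest spread (SD 0.74), followed by Ccl11 (0.59), Cxcl9 (0.56), Ccl8 (0.56), Ccl3 (0.46) and Ccl12 (0.41). Ccr9 had the narrowest (0.07). Many of the genes lie side by side in the genome: 11 of the 18 CC ligands are on chromosome 11, 9 of the 13 CXC ligands are on chromosome 5 and 6 of the 9 CC receptors are on chromosome 9.

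The promoters of Cxcl9 and Cxcl10 are shown because these neighbours on chromosome 5, both T cell attractants induced by interferon, had 2 of the 3 widest spreads and peaked on the same array. That of Ccl22 is shown because this gene had the smallest p of the 45 when steroid groups were set against BSS. The sequences are RefSeq's on GRCm38.p6, from 250 bases before to 50 bases after the start, in the direction of transcription. RefSeq promoters were at hand for 32 of the 45 genes. Capitals mark matches on either strand to GAAANNGAAA (the interferon-stimulated response element) or GGGNNNTTCC (a form of the NF-kB site).
Cxcl9 (chr5:92328030-92328329, minus strand): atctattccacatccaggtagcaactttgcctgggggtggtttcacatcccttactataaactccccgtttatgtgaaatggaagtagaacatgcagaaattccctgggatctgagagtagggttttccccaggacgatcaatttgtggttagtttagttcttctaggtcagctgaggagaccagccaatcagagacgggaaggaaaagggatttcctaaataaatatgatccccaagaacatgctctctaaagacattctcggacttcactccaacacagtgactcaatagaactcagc
Cxcl10 (chr5:92348840-92349139, minus strand): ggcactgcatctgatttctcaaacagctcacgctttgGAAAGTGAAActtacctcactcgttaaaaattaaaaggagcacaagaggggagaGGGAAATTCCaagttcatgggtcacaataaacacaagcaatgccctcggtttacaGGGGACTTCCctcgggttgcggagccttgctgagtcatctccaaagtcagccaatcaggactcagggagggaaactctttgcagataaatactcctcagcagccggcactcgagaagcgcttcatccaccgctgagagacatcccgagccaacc
Ccl22 (chr8:94745434-94745733, plus strand): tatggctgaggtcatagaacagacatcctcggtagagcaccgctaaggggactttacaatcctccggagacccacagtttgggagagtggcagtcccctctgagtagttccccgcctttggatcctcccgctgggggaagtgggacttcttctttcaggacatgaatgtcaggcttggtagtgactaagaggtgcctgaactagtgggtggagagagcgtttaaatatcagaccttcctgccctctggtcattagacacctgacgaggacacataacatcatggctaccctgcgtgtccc

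The Cxcl10 promoter held 1 match to the interferon element and 2 to the NF-kB site, which did not overlap. Those of Cxcl9 and Ccl22 held neither, which says only that these letters are not in these 300 bases. Of the 32 genes with a promoter, 2 had the interferon element in it (Cxcl10 and Cxcl14) and 9 the NF-kB site (Ccl1, Ccl9, Ccl20, Ccr3, Ccr6, Cxcl1, Cxcl2, Cxcl3 and Cxcl10). Among 32851 promoters of the same length, counted singly and not by gene, 3.44% held the former and 5.56% the latter. The palindromic glucocorticoid response element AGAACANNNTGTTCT was in no promoter of the 32 genes and in 0.00913% of all promoters.

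The first question was which of these genes differed between day 7 and day 30, taken as the mean difference over the 3 treatments. Animals injected on the same day were collected on separate days, so day cannot be told apart from age or the collection session. Ccl11 was lower at day 30, and it was the only one of the 45 genes to pass limma's adjusted p under 0.05 in any comparison. Of all genes, 0.429% passed in this comparison, 0.324% as lower at day 30. At an unadjusted p under 0.05, 9 of the 45 genes differed, 8 of them lower at day 30 and 1 higher. Of all genes, 15.3% differed at this threshold and 9.17% were lower. The difference was negative for 34 of the 45 genes (median -0.05) and for 10424 of all 18194 genes (median -0.02). RNA of the whole tissue cannot tell fewer cells of a type from less RNA per cell.

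Ccl11 encodes eotaxin-1, which attracts eosinophils and mast cell precursors through Ccr3 and is made largely by stromal and epithelial cells. At day 7 it read 0.44, 1.26 and 0.72 in the BSS arrays, 0.70, 0.27 and 0.38 in the Dex arrays and 0.81, 0.86 and -0.10 in the TAA arrays. At day 30 it read -0.28, 0.10 and -0.54 with BSS, -0.60, -0.35 and -0.55 with Dex and -0.36, -0.65 and -0.20 with TAA. The days overlapped only through TAA day 7 replicate 3, which lay below BSS day 30 replicate 2. The difference was -0.97 (SE 0.15, 95% interval -1.29 to -0.66, limma adjusted p = 0.00782), a 1.96-fold lower signal. It was -1.05 with BSS, -0.95 with Dex and -0.92 with TAA. The adjusted p stayed under 0.05 when any 1 array was left out. With the mean of the fibroblast genes as a covariate, chosen after seeing the data, the difference was -0.91 and the adjusted p 0.496, in a fit that called 7 of all genes where 78 were called without the covariate. Ccr3, the receptor of Ccl11 and Ccl24, differed by 0.04 (SE 0.08, adjusted p = 0.868).

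Genes of other cell types were read beside Ccl11, and none in the lists that follow passed the adjusted test. Their counts at an unadjusted p under 0.05 stand against 15.3% of all genes. All 8 fibroblast genes were lower at day 30 (median -0.39, 6 of them at an unadjusted p under 0.05). The mean of this list ran from -0.58 to 0.56 at day 7 and from -0.50 to -0.02 at day 30. Col3a1, which encodes a fibrillar collagen, differed by -0.59 (SE 0.16, adjusted p = 0.133). All 9 rod genes were higher at day 30 (median 1.66, none with p under 0.05), as were all 8 lens genes (median 0.93, 5 with p under 0.05), and all 8 endothelial genes were lower (median -0.15, 2 with p under 0.05). Among 14 macrophage and microglia genes 12 were lower (median -0.15, 2 with p under 0.05). The adipocyte list, of which 3 genes were measured, was also lower (median -0.48) and reached its second highest mean, 2.12, in BSS day 7 replicate 2, where Ccl11 was highest. The part of these tissues in the Ccl11 difference was not tested beyond the covariate fits.

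Cxcr4 and its ligand Cxcl12 came next. Cxcr4, a receptor that holds stem cells and leukocytes in their niche and is found on growing vessels, read 0.40, 0.06 and 0.42 with BSS, 0.03, 0.06 and -0.04 with Dex and -0.01, 0.16 and 0.10 with TAA at day 7. At day 30 it read -0.77, -0.01 and -0.23 with BSS, 0.01, -0.11 and -0.39 with Dex and -0.52, -0.64 and 0.03 with TAA. The lowest day 7 array lay at -0.04 and the highest day 30 array at 0.03, so the days overlapped narrowly. The difference was -0.42 (SE 0.11, adjusted p = 0.114). Cxcl12, made by stromal and endothelial cells, ran from -0.12 over a median of 0.11 to 0.31 at day 7, and from -0.44 over -0.17 to 0.10 at day 30. Its difference was -0.28 (SE 0.08, adjusted p = 0.135), near equal with BSS (-0.29), Dex (-0.29) and TAA (-0.27). Ackr3, the scavenging receptor that also binds Cxcl12, differed by -0.36 (SE 0.12, adjusted p = 0.18). None of these 3 genes passed the adjusted test in the fit that gave all 18 arrays equal weight. With the mean of the fibroblast genes as a covariate the difference was -0.29 for Cxcr4 and -0.14 for Cxcl12.

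The other genes with an unadjusted p under 0.05 were smaller or more scattered. Cxcl11, an interferon-induced ligand of Cxcr3, differed by -0.28 (SE 0.09, adjusted p = 0.186), and its probe sets gave -0.47 and -0.08. Cxcl5, a neutrophil attractant, differed by -0.42 (SE 0.15, adjusted p = 0.213), by -0.57 with BSS and -0.63 with Dex but by -0.05 with TAA. Ccl6 and Ccl9, macrophage chemokines that act on Ccr1, differed by -0.39 (SE 0.14, adjusted p = 0.214) and -0.37 (SE 0.14, adjusted p = 0.256), and Ccr1 itself by -0.18 (SE 0.08, adjusted p = 0.321). With the fibroblast covariate Ccl9 was at 0.0021, Cxcl5 at -0.08 and Ccl6 at -0.19, and with the macrophage covariate Ccl6 was at -0.14. Ccl27a, a skin T cell attractant, was the one in the other direction, at 0.36 (SE 0.13, adjusted p = 0.223). Its arrays ran from -0.53 to 0.04 at day 7 and from -0.32 to 0.66 at day 30. With rod genes as a covariate the Ccl27a difference was 0.21.

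**Figure D2:**
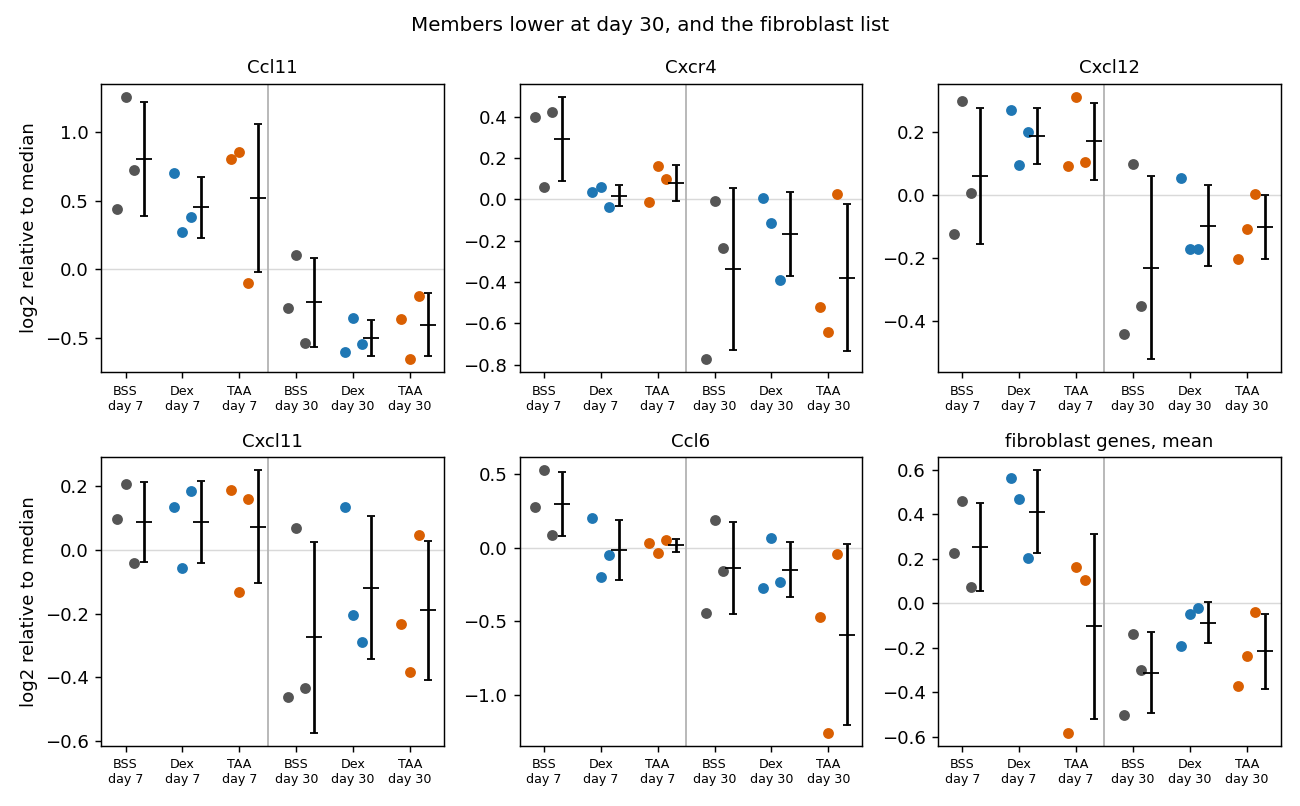
Log2 expression relative to the median (vertical axis) of Ccl11, Cxcr4, Cxcl12, Cxcl11 and Ccl6 and the mean of the 8 fibroblast genes in each group (horizontal axis), with a point for each array and, to the right of the points, the mean ± SD (n = 3). Day 30 lies right of the vertical line, and the Ccl11 means fall from 0.81, 0.45 and 0.52 at day 7 to -0.24, -0.50 and -0.40 at day 30.

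Of the arrays left out in turn, BSS day 30 replicate 2 changed most how many of these genes passed. Without it, 5 passed the adjusted test (Ccl11, Cxcr4, Cxcl12, Cxcl11 and Ccl27a), where Cxcr4 differed by -0.48 (adjusted p = 0.0315), Cxcl12 by -0.34 (adjusted p = 0.0194) and Ccl27a by 0.44 (adjusted p = 0.0443), and the calls over all genes went from 78 to 808. Without TAA day 30 replicate 3, 2 passed (Ccl11 and Cxcr4), with 91 calls over all genes. With weights for array quality, 6 passed (Ccl11, Ccl27a, Ccl6, Cxcl11, Cxcl12 and Cxcr4) and the calls over all genes went to 1543. The rod gene mean was -0.61 in BSS day 30 replicate 2, against 3.99 and 3.89 in replicates 1 and 3 of that group. It was -1.91 in TAA day 30 replicate 3. Without Dex day 30 replicate 1, where it was -1.69, only Ccl11 passed, with 123 calls over all genes. With rod genes as a covariate only Ccl11 passed, with 58 calls. The part of retinal RNA in these counts was not tested beyond that fit.

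The second question was whether either steroid changed these genes against BSS at the same day. None of the 45 genes passed limma's adjusted test in any of the 4 comparisons. Nor did any under the methods' t-test after adjustment, run here on the mean of the probe sets per gene. At its unadjusted threshold that test gave 3 of the 45 genes for Dex at day 7 (3.94% of all genes), 2 for TAA at day 7 (5.44%), 2 for Dex at day 30 (1.52%) and 0 for TAA at day 30 (2.3%). In limma, 0% of all genes passed for Dex at day 7, 0.0055% for TAA at day 7 (a single gene, Saa3), 0% for Dex at day 30 and 0% for TAA at day 30. At an unadjusted p under 0.05, 1 of the 45 genes differed with Dex at day 7 (1.83% of all genes), 3 with TAA at day 7 (4.23%), 2 with Dex at day 30 (4.7%) and 0 with TAA at day 30 (2.57%). At the study's thresholds, which ask for a fold of at least 1.5 and an unadjusted p no higher than 0.05, here that of limma, the counts were 0 for Dex at day 7 (0.0989% of all genes), 0 for TAA at day 7 (0.583%), 1 for Dex at day 30 (0.44%) and 0 for TAA at day 30 (0.176%). With the p of the methods' t-test on these gene means, the same thresholds gave none of the 45 genes in any of the 4 comparisons (0.22%, 0.445%, 0.0385% and 0.011% of all genes). The study tested single probe sets. The comparisons of both steroids at a day share the BSS arrays.

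**Figure D3:**
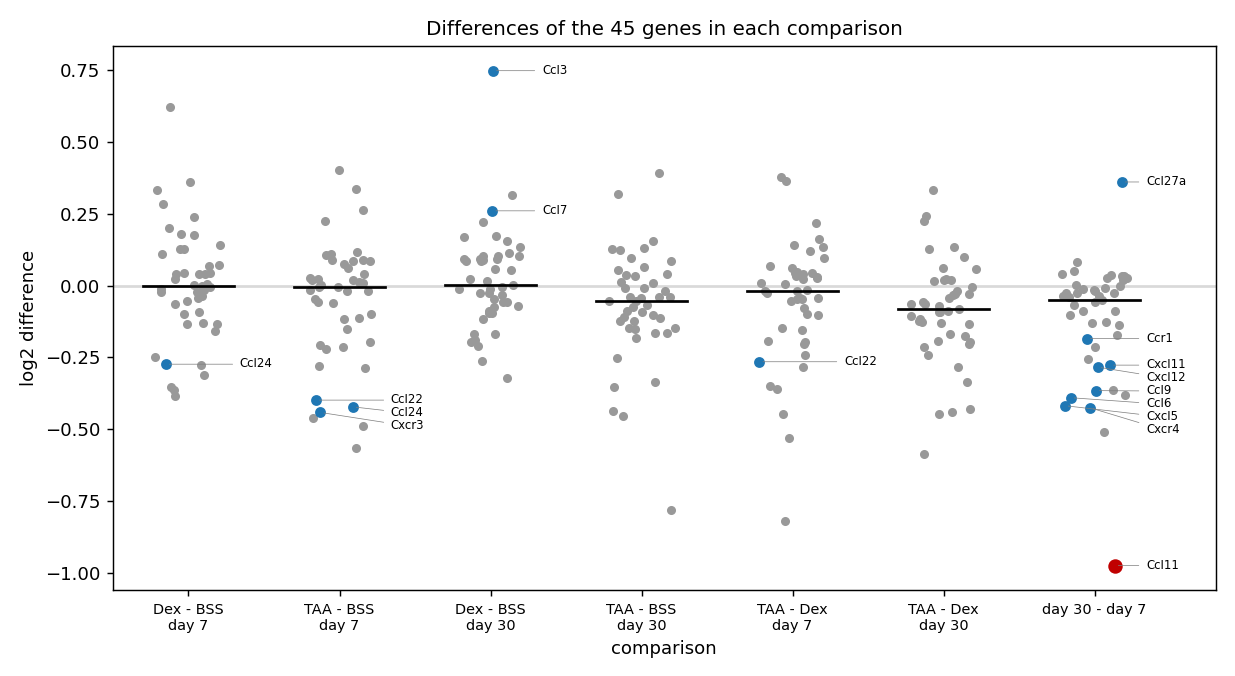
Log2 difference (vertical axis) of each of the 45 genes in 7 comparisons (horizontal axis), with a bar at the median. Grey points had p of 0.05 or more in limma, blue points p under 0.05 and the red point an adjusted p under 0.05, which is Ccl11 at -0.97 between the days.

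At day 7 the genes with the lowest p against BSS were Ccl22 and Ccl24, both at lower values with TAA. Ccl22, which draws regulatory and Th2 cells through Ccr4, read 0.40, 0.14 and 0.09 with BSS, 0.01, 0.17 and 0.05 with Dex and -0.15, -0.17 and -0.25 with TAA. Every TAA array lay below every BSS and Dex array. TAA differed from BSS by -0.40 (SE 0.11, limma adjusted p = 0.991). The difference of Dex from BSS was -0.13 (95% interval -0.36 to 0.10). Ccl17, the other ligand of Ccr4, differed by 0.26 with TAA (95% interval -0.27 to 0.79), with 0.84 in TAA day 7 replicate 2 and values from -0.07 to 0.10 in the other two. Ccl9, a macrophage chemokine, differed by 0.33 with TAA (95% interval -0.19 to 0.86), and its 3 TAA arrays read 0.13, 1.05 and 0.10. Ccr4 differed by -0.06 (95% interval -0.31 to 0.20).

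Ccl24, eotaxin-2, an eosinophil attractant of macrophages, read 0.28, 0.24 and 0.20 with BSS at day 7, -0.10, -0.03 and 0.03 with Dex and -0.05, -0.16 and -0.35 with TAA. All 6 steroid arrays lay below the 3 BSS arrays, and those of the steroids overlapped. The differences from BSS were -0.27 with Dex (SE 0.13, limma adjusted p = 0.9997) and -0.42 with TAA (SE 0.13, limma adjusted p = 0.991). With rod genes as a covariate the Dex difference was -0.15, where all 9 rod genes had higher values with Dex at day 7 than with BSS (median 2.30, none with p under 0.05). At day 30 BSS alone ran from -0.33 to 0.25, over the range of both steroids.

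Cxcr3, the receptor through which Cxcl9, Cxcl10 and Cxcl11 reach T and NK cells, read 0.34, 0.43 and -0.04 with BSS and -0.56, 0.02 and -0.05 with TAA. The groups overlapped through BSS day 7 replicate 3. The difference was -0.44 (SE 0.19, limma adjusted p = 0.991), and -0.26 without TAA day 7 replicate 1. Its ligands differed by -0.20 (Cxcl9, SE 0.42), -0.11 (Cxcl10, SE 0.59) and -0.02 (Cxcl11, SE 0.16). At day 7 TAA also had lower values for all 9 dendritic cell and MHC class II genes (median -0.39, 3 with p under 0.05; H2-Aa -0.69, SE 0.25), and the mean of this list was -0.49, -0.03 and -0.18 in the 3 TAA arrays against 0.13, 0.28 and 0.02 in the BSS arrays. In the same comparison all 8 lens genes (median -1.41, 4 with p under 0.05), all 10 skeletal muscle genes (-0.53, 5 with p under 0.05), all 6 surface epithelium genes (-2.37, none) and all 3 adipocyte genes (-0.84, 2) were lower as well, and all 9 rod genes were higher (1.13, none). The part of these tissues in the Ccl22, Ccl24 and Cxcr3 values was not tested beyond the rod covariate.

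Ccl28, a mucosal chemokine of epithelia that acts on Ccr10 and Ccr3, depended on the probe set. The mean of its 3 probe sets read -0.06, -0.05 and -0.34 with BSS at day 7, -0.10, 0.06 and 0.11 with Dex and 0.17, 0.01 and 0.05 with TAA. TAA lay above BSS in every array, by 0.23 (SE 0.13, limma adjusted p = 0.991). Dex overlapped with BSS and differed by 0.18 (95% interval -0.11 to 0.46). The probe set with the widest spread read -0.24, -0.41 and -0.53 with BSS and 0.41, 0.10 and 0.23 with TAA, a difference of 0.64 (SE 0.20, limma adjusted p = 0.996), whereas the other two differed by -0.01 and 0.05. With this probe set Ccl28 passed the study's thresholds. The study's supplement lists the same probe set as higher with TAA at day 7, while its text prints that fold with a minus sign. At day 30 the gene differed by -0.03 with Dex and -0.01 with TAA, signs that turned in several of the alternatives. Its receptor Ccr10 had no p under 0.05 in any of these comparisons.

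At day 30 the genes with the lowest p were Ccl3 and Ccl7, both at higher values with Dex. Ccl3 (MIP-1 alpha), made by activated macrophages and T cells, read -0.98, 0.16 and -0.49 with BSS and 0.02, 0.74 and 0.17 with Dex. The groups overlapped through BSS day 30 replicate 2. The difference was 0.75 (SE 0.34, limma adjusted p = 0.934), a 1.68-fold higher signal and the only one at the study's thresholds in limma. It did not pass them with the p of the methods' t-test, with quantile normalization, with the arrays compared alone, with rod genes as a covariate or with a replicate block. Without BSS day 30 replicate 1 it was 0.48 and without BSS day 30 replicate 2 it was 1.04, and it no longer passed those thresholds without BSS replicate 1 or 3 or without Dex replicate 2 or 3. In the same arrays Ccl4, its close relative, differed by 0.11 (95% interval -0.18 to 0.41).

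Ccl7 (MCP-3), which recruits monocytes through Ccr2, read -0.13, -0.09 and -0.08 with BSS and 0.00, 0.28 and 0.19 with Dex. Every Dex array lay above the 3 BSS arrays, by a mean of 0.26 (SE 0.11, limma adjusted p = 0.934). Among other monocyte attractants, Ccl2 differed by -0.0043 (95% interval -0.28 to 0.27), Ccl8 by -0.19 (-1.01 to 0.62) and Ccl12 by 0.09 (-0.56 to 0.74). Ccr2 differed by -0.07 (95% interval -0.38 to 0.24). Among the macrophage and microglia genes 11 of 14 were higher with Dex at day 30 (median 0.29, none with p under 0.05), and in BSS day 30 replicate 1, the lowest array for Ccl3, the mean of the list was -0.32. All 8 endothelial genes were higher with Dex too (median 0.40, 4 with p under 0.05), and all 9 rod genes (median -1.66, none) and all 8 lens genes (-1.27, none) were lower. Their part in the Ccl3 and Ccl7 values was not tested beyond the rod covariate.

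TAA at day 30 gave no gene with p under 0.05, yet 30 of the 45 genes were lower than with BSS (median -0.05). Of all 18194 genes, 8315 were lower (median 0.01). Ccl8 (MCP-2), a monocyte attractant of tissue macrophages, read -0.09, 0.18 and -0.08 with BSS and -1.37, -1.22 and 0.26 with TAA. TAA replicates 1 and 2 lay far below all BSS arrays and replicate 3 above them. The difference was -0.78 (SE 0.38, limma adjusted p = 0.999). Ccl6 read -0.47, -1.25 and -0.04 with TAA and differed by -0.45 (SE 0.24, limma adjusted p = 0.999). Cxcl14 had the lowest difference of the 13 CXC ligands, -0.44. It read -0.12, 0.04 and 0.96 with BSS and -0.21, -0.07 and -0.14 with TAA. All 14 macrophage and microglia genes were lower with TAA (median -0.21, none with p under 0.05), and the mean of the list was -0.26, -0.86 and 0.06 in the 3 TAA arrays. The lowest array of the list, TAA day 30 replicate 2, was also the lowest of Ccl6, whereas Ccl8 was lowest in TAA day 30 replicate 1. BSS day 30 replicate 1, the second lowest of the list at -0.32, had Ccl8 at -0.09. In the same comparison all 8 lens genes (median -1.33), all 9 rod genes (-0.93) and all 9 dendritic cell and MHC class II genes (-0.42) were lower. So were all 10 skeletal muscle genes (-0.27) and all 3 adipocyte genes (-0.48). All 8 endothelial (0.25), 6 surface epithelium (0.33) and 4 B cell genes (0.14) were higher. None of these had p under 0.05. The part of macrophage RNA or of these tissues in the Ccl8 and Ccl6 values was not tested beyond the rod covariate.

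**Figure D4:**
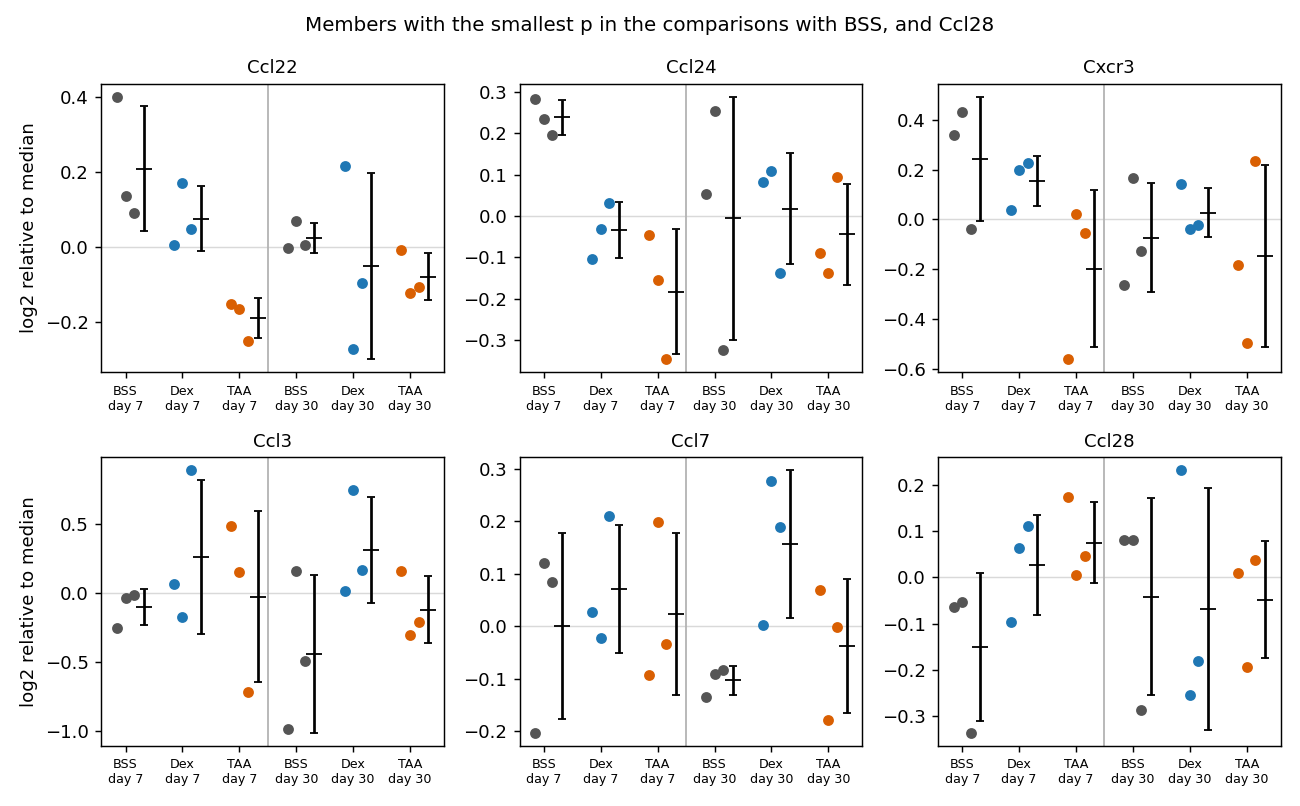
Log2 expression relative to the median (vertical axis) of Ccl22, Ccl24, Cxcr3, Ccl3, Ccl7 and Ccl28 in each group (horizontal axis), with a point for each array and the mean ± SD (n = 3) to its right. The 3 TAA day 7 arrays of Ccl22 lie between -0.25 and -0.15, below all BSS and Dex arrays of that day.

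Steroids were also set against each other at the same day, at their different doses. None of the 45 genes passed the adjusted limma test at day 7 (0% of all genes) or day 30 (0%). At an unadjusted p under 0.05, 1 gene differed at day 7 (2.49% of all genes), which was Ccl22, lower with TAA by 0.26 (95% interval -0.50 to -0.03, SE 0.11), and 0 differed at day 30 (1.62%). At day 30, 33 of the 45 genes were lower with TAA than with Dex (median -0.08), beside 8940 of all 18194 genes (median 0.00). In the same comparison, 8 of 14 macrophage and microglia genes were lower with p under 0.05. The mean of that list was -0.26, -0.86 and 0.06 with TAA and -0.12, 0.36 and 0.00 with Dex. All 12 interferon response genes were lower too (median -0.20, 1 with p under 0.05). So were all 9 dendritic cell and MHC class II (-0.55, 2), 10 skeletal muscle (-0.31, none), 8 endothelial (-0.17, none), 6 mast cell (-0.15, none) and 3 adipocyte genes (-0.44, none). All 9 rod genes were higher (0.79, none).

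Whether an effect changed between the days was tested as an interaction. For Dex none of the 45 genes passed the adjusted test (0% of all genes) or an unadjusted p under 0.05 (2.72%). For TAA none passed the adjusted test (0%) and 2 had an unadjusted p under 0.05 (3.04%). These were Ccl24, whose TAA difference was 0.38 higher at day 30 than at day 7 (SE 0.18, adjusted p = 0.968), and Ccr8, a receptor of skin and regulatory T cells, at 0.28 (SE 0.12, adjusted p = 0.968). For Ccl22 the change was 0.30 (SE 0.15, adjusted p = 0.968). With probe sets fitted one by one or the probe set of largest SD, Ccl28 passed the study's thresholds in both interactions, as did 1.09% to 1.56% of all genes.

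The F-test over the 6 groups called 0 of the 45 genes after adjustment (0.0495% of all genes), and 5 had an unadjusted p under 0.05 (5.29%). They were Ccl11 (adjusted p = 0.234), Cxcr4, Ccl22, Cxcl12 and Ccl6. The F-test of treatment within a day called 0 of the 45 (0% of all genes), and 1 had an unadjusted p under 0.05 (1.73%), which was Ccl22. Without TAA day 7 replicate 3 the test over 6 groups called 1 gene, Ccl11.

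Some arrays held the highest or lowest value of several of these genes. Dex day 7 replicate 3 had the highest value of the 18 arrays for 7 of the 45 genes (15.6%), where it was highest for 5.07% of all genes. The 7 were Cxcl9, Cxcl10, Ccl3, Ccl4, Ccl5, Ccr1 and Cxcr6, which include the interferon-induced Cxcl9 and Cxcl10 and Ccl5, attractants of T and NK cells, and Cxcr6, a receptor of tissue T cells. Cxcl11, the third of the interferon-induced ligands of Cxcr3, was highest in BSS day 7 replicate 2 instead. In Dex day 7 replicate 3 Cxcl9 read 1.97, and 0.26 and -0.03 in the other Dex arrays of day 7. Its probe sets read 3.04 and 0.90. Cxcl10 read 1.79 there, against 0.71 and -0.54, and Ccl5 0.66, against 0.05 and -0.19. On this array the mean of 12 interferon response genes was 0.51, the highest of the 18, the mean of 9 T and NK cell genes was 0.29, also the highest, and Ifng, the interferon of those cells, read 0.55.

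Cxcl10 was nearly as high in TAA day 30 replicate 3, at 1.49, where Cxcl9 read 0.44 and the interferon list -0.02. It was lowest in TAA day 30 replicate 1, at -1.07. Differences of Cxcl10 from BSS had 95% intervals of -0.92 to 1.59 for Dex and -1.36 to 1.14 for TAA at day 7. Cxcl9 differed with Dex at day 7 by 0.62 (95% interval -0.27 to 1.52), a value carried by replicate 3.

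**Figure D5:**
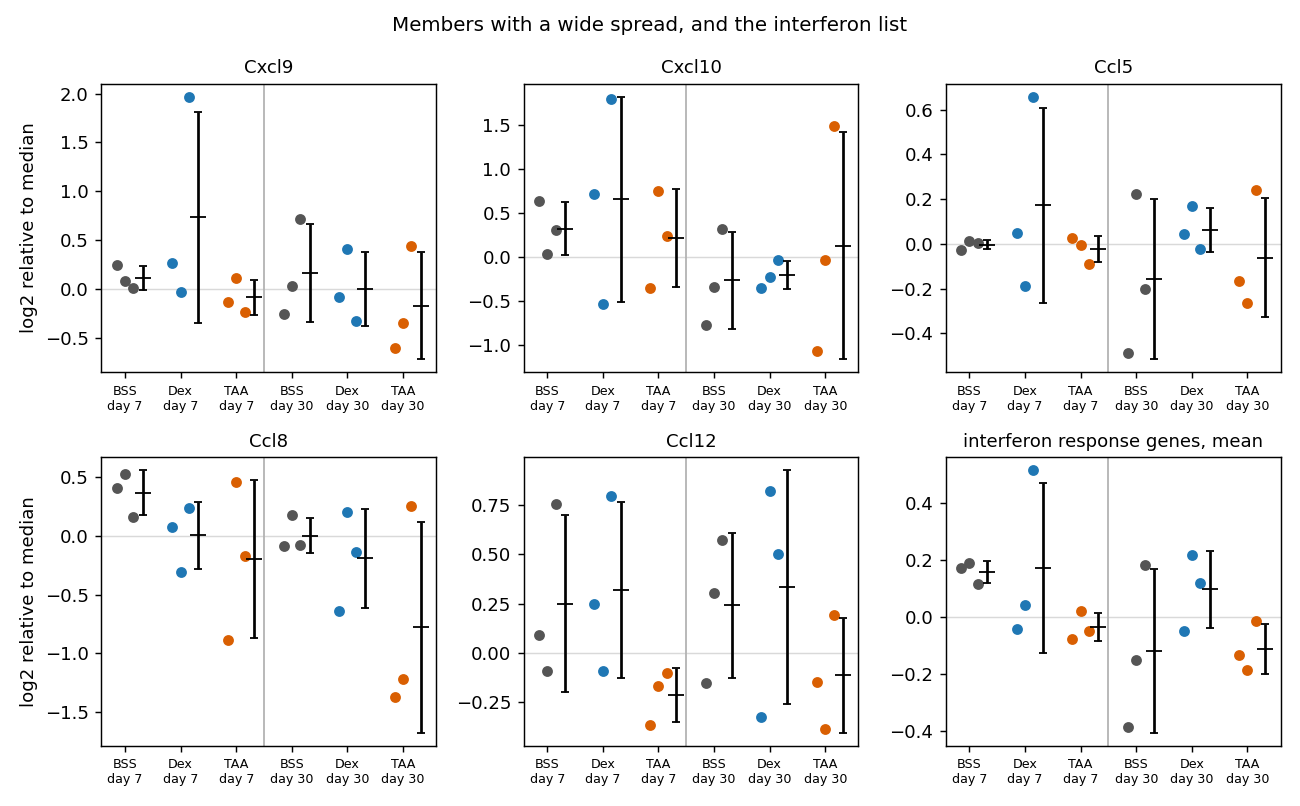
Log2 expression relative to the median (vertical axis) of Cxcl9, Cxcl10, Ccl5, Ccl8 and Ccl12 and the mean of the 12 interferon response genes in each group (horizontal axis), with a point for each array and the mean ± SD (n = 3) to its right. A single Dex day 7 array holds the highest Cxcl9 (1.97), Cxcl10 (1.79), Ccl5 (0.66) and interferon mean (0.51).

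BSS day 7 replicate 2 was highest for 6 of the genes (13.3%, against 4.4% of all genes): Ccl6, Ccl8, Ccl11, Cxcl5, Cxcl11 and Cxcr3. TAA day 7 replicate 2 was highest for 6 (13.3%, against 8.45%): Ccl1, Ccl2, Ccl9, Cxcl1, Cxcl3 and Cxcl12. TAA day 7 replicate 1 was lowest for 5 (11.1%, against 3.13%): Cxcl2, Cxcl5, Cxcl14, Cxcl16 and Cxcr3. BSS day 30 replicate 1 was lowest for 7, Cxcl12 and Cxcr4 among them, a share near that of all genes (15.6%, against 12.3%). TAA day 30 replicates 1 and 2 were lowest for 5 and 6 of the genes (11.1% and 13.3%, against 3.19% and 6.56% of all genes). Ccl12 (MCP-5), another monocyte attractant, was high in 1 or more arrays of each BSS and Dex group, with group means from 0.24 to 0.33, and its TAA means were -0.21 ± 0.14 at day 7 and -0.11 ± 0.29 at day 30 (SD, n = 3). The differences of TAA from BSS, -0.46 (SE 0.30) and -0.35 (SE 0.30), had adjusted p in limma of 0.991 and 0.999.

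The other genes of the chemokine system were sparse in differences too. Of 12 genes for other chemokines, atypical receptors and a chemokine-cleaving enzyme, none passed an adjusted test. Pf4, platelet factor 4, had the lowest p of them with TAA at day 7, at -0.53 (SE 0.14, adjusted p = 0.991), and between the days, at -0.29 (SE 0.08, adjusted p = 0.143). Of 24 genes of receptor signaling, none passed, and 2 were higher and 3 lower at day 30 with an unadjusted p under 0.05, where 15.3% of all genes had such a p. Grk5, a kinase that desensitises receptors, had the lowest p, at 0.26 (SE 0.06, adjusted p = 0.063). Of 25 inflammatory genes that induce chemokines or let leukocytes adhere, none passed, and 4 were lower and 2 higher at day 30 with p under 0.05, among them Vcam1 at -0.29 (SE 0.08, adjusted p = 0.136).

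Genes known to answer to glucocorticoids were read in the same arrays. With TAA at day 7, 12 of 14 had higher values, 4 of them with an unadjusted p under 0.05 (4.23% of all genes had such a p). With Dex at day 7, 10 of the 14 had higher values, 1 of them with such a p (1.83%). At day 30, 10 had higher values with Dex and 9 with TAA, none with such a p (4.7% and 2.57%). Per1, a clock gene that glucocorticoids induce, differed by 0.70 (SE 0.18, adjusted p = 0.991). Saa3, an acute phase protein, read 2.84, 1.92 and 2.73 with TAA against 0.13, -0.08 and -0.49 with BSS, and was the single gene called there, at 2.64 (SE 0.30, adjusted p = 0.0057). At day 30, in the mean over the treatments, Per1 (-0.65, SE 0.10, adjusted p = 0.011), Tsc22d3 (-0.47, SE 0.08, adjusted p = 0.0119) and Saa3 (-1.12, SE 0.17, adjusted p = 0.0102) were lower than at day 7. For Saa3 that mean includes the high TAA values of day 7 given above. The change of these genes within each treatment is not given here.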

How the data were processed

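RPE/choroid RNA of 18 samples was measured on Affymetrix mouse expression arrays, 3 for each of 6 groups. The labels name two-cycle labelling and the methods the 3′ IVT Express kit. The authors deposited log2 values made with RMA, per the labels, and the values show each of the 45101 probe sets centred on its median over the 18 arrays. Levels, background and depth are therefore unknown, no filter on weak signal was possible, and the number of arrays limits the precision.

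Probe sets with 1 gene symbol in the platform annotation (34958; 932 had several and 9211 none) were averaged to 18194 genes. A further 4 probe sets that list a chemokine symbol beside another gene were not used. The 45 symbols all matched RefSeq. limma 3.58.1 in R 4.3.3 was fitted to all genes, with a mean per group and no covariate (12 residual degrees of freedom, plus 2.64 from the prior), two-sided, with Benjamini-Hochberg adjustment over all genes. The call was an adjusted p under 0.05. The fit was tested on simulated data. With 3 arrays against 3, an exact permutation test cannot go below 0.1. Per the methods all animals were injected on the same day, so p-values measure the spread between animals of a single experiment. List means are means of their genes on an array. Python 3.11.15 with pandas 2.3.3, numpy 2.4.6 and matplotlib 3.10.9 served the rest.

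The genes and lists were chosen with earlier results of these data known. Named with full values were genes with an adjusted p under 0.05, up to 5 in each direction of a comparison with an unadjusted p under 0.05, the 5 with the smallest p over 6 groups, the 6 with the largest SD, and Ccl28. Cxcl11, Cxcl14, Ccr1, Ccr2, Ccr3, Ccr4, Ccr8, Ccr10, Ccl2, Ccl4, Ccl5, Ccl17 and Cxcr6 were added after their values were seen or as partners of these. Of each other list, up to 3 genes with the smallest p in a comparison could be named, and Ackr3 and Ifng were added for their part with Cxcl12 and the interferon list.

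Alternatives were probe sets fitted one by one, the probe set of largest SD, a trended and robust prior, array weights, quantile normalization, array medians subtracted, the arrays compared alone, the methods' t-test, genes of low SD left out, rod genes as a covariate, a replicate block and each array left out in turn.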

Additional observations from a re-analysis of the deposited data

How the results depend on the processing

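The absence of an adjusted call in the comparisons of treatments held under every alternative run, and Ccl11 passed between the days in 30 of 31 settings, with differences from -1.32 to -0.85. The exception was the fibroblast covariate, chosen after seeing the data as were adipocyte and macrophage covariates, under which 0 of the 45 genes were called between the days and the calls over all genes went from 78 to 7. Array weights gave 6 and leaving out 1 array gave 1 to 5 (5 without BSS day 30 replicate 2, 2 without TAA day 30 replicate 3). For the F-test over 6 groups that range was 0 to 1 (Ccl11 without TAA day 7 replicate 3). At the study's thresholds, Dex at day 7 gave 1 gene with the rod covariate (Cxcl9) and 0 to 1 with 1 array left out (Cxcl9 without Dex day 7 replicate 2). TAA at day 7 gave 1 with probe sets fitted one by one or the probe set of largest SD (Ccl28), 1 with array weights (Ccl12) and 0 to 2 with 1 array left out (Cxcl5 without BSS day 7 replicate 1, Cxcl3 without TAA day 7 replicate 1, Ccl8 and Cxcl5 without TAA day 7 replicate 2). Dex at day 30 gave 0 with quantile normalization, the arrays compared alone, the methods' t-test, the rod covariate or the replicate block, and 0 to 1 with 1 array left out. TAA at day 30 gave 2 with array weights (Ccl3, Ccl8), 2 with quantile normalization (Ccl6, Ccl8), 1 with the rod covariate (Ccl8) and 0 to 2 with 1 array left out (Ccl6 and Cxcl14 without BSS day 30 replicate 1, Ccl6 and Ccl8 without TAA day 30 replicate 3). Replicate numbers name no shared animal: deviations of same-numbered arrays had r above 0.1 in 14 of 45 pairs (-0.755 to 0.615), and the replicate block left the count between the days at 1, and the calls over all genes at 52 against 78. Some signs turned. Between the days, Ccl9 was 0.0021 and Ccl8 0.20 with the fibroblast covariate, Ccl3 was 0.025 with the rod covariate and 0.028 with the macrophage covariate, and Ccl12 was -0.10 with array weights, -0.11 with quantile normalization, -0.035 with the adipocyte covariate and -0.047 to 0.14 with 1 array left out. Ccl28 at day 30 with 1 array left out ran from -0.18 to 0.067 with Dex and from -0.13 to 0.066 with TAA, and with probe sets fitted one by one was 0.10 with TAA. Over all alternatives, 561 values of named genes kept direction and side of the threshold, 8 now passed, 1 no longer did and 20 turned sign. The arrays compared alone were not run for the days and F-tests, nor the t-test for interactions and treatment within a day. Why these counts moved was not tested.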
